A study of Mus musculus with 28 samples.

Results

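The 10 genes described here encode tumor necrosis factor (Tnf), both of its receptors (Tnfrsf1a and Tnfrsf1b), the receptor adaptors Traf1 and Traf2, the inhibitors Tnfaip3 and Nfkbia, and the NF-κB subunits Nfkb1, Nfkb2 and Relb. They were chosen by symbol from the 25251 genes of the table, with the higher level of Tnf in ECs of Flt3 ITD/ITD mice already known, and all 10 were present. RNA was sequenced from CD45-Ter119-CD31+ endothelial cells (ECs) and CD45-Ter119-CD31-CD166-Sca1+ mesenchymal stromal cells (MSCs) of the bone lining, and from bone marrow mononuclear cells (MNCs). The mice were C57BL/6, aged 8 to 10 wk, and were either wild type at Flt3 (Flt3+/+) or homozygous for a knocked-in internal tandem duplication (Flt3 ITD/ITD), which every cell of the animal carries. Each genotype had 5 EC, 5 MSC and 4 MNC libraries, 28 in all, with 100 sorted cells behind an EC or MSC library and 200 behind an MNC library.

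TNF is a cytokine made mainly by activated macrophages and lymphocytes. Binding of TNF to its receptors recruits TRAF adaptors and starts a kinase cascade that degrades IκBα, the product of Nfkbia, and thereby lets NF-κB dimers enter the nucleus. NF-κB then transcribes adhesion molecules, chemokines and its own inhibitors, Nfkbia and Tnfaip3 among them, and in the bone marrow TNF is known to restrain hematopoietic stem cells. TNFR1 (Tnfrsf1a) is found on most cell types, whereas TNFR2 (Tnfrsf1b) is found mainly on leukocytes and endothelium.

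Levels are given as RPKM, the read count scaled to transcript length and library total, so that genes can be compared with each other within a population. The libraries held 6377013 to 33880743 counts, and 3 counts were taken as the smallest number that a library can show, a floor that covers counting error only because amplified reads are not independent molecules. The 10 endothelial markers summed to 2275 to 3378 RPKM in ECs and to at most 37.5 RPKM elsewhere. The 10 mesenchymal markers summed to 29170 to 33752 RPKM in MSCs, 3635 to 6353 RPKM in ECs and at most 194 RPKM in MNCs. Of these, Pdgfra, Pdgfrb, Col1a1 and Col1a2 each averaged at most 2.90 RPKM in ECs of either genotype, so other genes of the list made up the EC sum. The 12 pan-leukocyte markers summed to 7953 to 11647 RPKM in MNCs, whose cell type tag in the labels reads Bone Lining Cells although the source reads Bone marrow MNCs. One EC library, replicate 2 of Flt3 ITD/ITD, carried a pan-leukocyte sum of 648 RPKM and a neutrophil sum of 30076 RPKM, and replicate 5 of the Flt3 ITD/ITD MSCs carried 371 and 6345 RPKM. In bulk libraries fewer cells of a type and less RNA per cell cannot be told apart.

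The promoters of Nfkbia, Tnfaip3 and Nfkb2, which were higher in MSCs than in MNCs, and of Tnf, which was lower, are shown. Each window shown holds a match to the motif described next. The window of Tnfrsf1a, which was not called between populations, also holds a match but is not printed. The windows of Tnfrsf1b, Traf1 and Traf2 hold none and are not printed. Each run is the 250 bases before a RefSeq start site of GRCm38.p6, 5′ to 3′ on the strand of the gene, with matches to GGNNNTTCC on either strand in capitals. These letters, a core of the κB motif, were chosen with the values of the genes known.
Nfkbia, chr12:55492648-55492897, minus strand: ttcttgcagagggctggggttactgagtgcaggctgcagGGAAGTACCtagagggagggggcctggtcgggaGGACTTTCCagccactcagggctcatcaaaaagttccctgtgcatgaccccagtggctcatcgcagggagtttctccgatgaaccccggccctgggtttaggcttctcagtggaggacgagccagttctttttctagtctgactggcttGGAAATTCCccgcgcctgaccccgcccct
Tnfaip3, chr10:19015411-19015660, minus strand: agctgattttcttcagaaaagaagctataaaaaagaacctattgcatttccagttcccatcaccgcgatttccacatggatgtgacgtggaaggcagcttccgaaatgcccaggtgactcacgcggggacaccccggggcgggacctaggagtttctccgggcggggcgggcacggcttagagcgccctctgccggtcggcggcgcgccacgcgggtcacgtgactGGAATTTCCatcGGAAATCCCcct
Nfkb2, chr19:46304487-46304736, plus strand: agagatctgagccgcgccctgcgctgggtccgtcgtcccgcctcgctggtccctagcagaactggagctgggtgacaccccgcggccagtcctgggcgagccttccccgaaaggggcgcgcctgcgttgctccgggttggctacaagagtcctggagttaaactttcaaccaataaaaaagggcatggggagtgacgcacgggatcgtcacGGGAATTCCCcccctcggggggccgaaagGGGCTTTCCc
Tnf, chr17:35202008-35202257, minus strand: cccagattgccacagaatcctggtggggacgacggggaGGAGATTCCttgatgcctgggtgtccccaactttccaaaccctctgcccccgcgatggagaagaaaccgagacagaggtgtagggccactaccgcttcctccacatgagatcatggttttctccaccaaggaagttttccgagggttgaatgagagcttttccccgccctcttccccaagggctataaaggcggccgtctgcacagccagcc

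The Nfkbia window held 3 matches, the Nfkb2 window 3, of which 2 overlap in the run of capitals nearest its middle, the Tnfaip3 window 2 and the Tnf window 1. Of the 10 genes, 8 had a window in the reference used, with 11 windows in all because Tnfaip3 and Nfkb2 have further start sites. A match was present in 8 of the 11 windows, those of Nfkbia, Tnfaip3, Nfkb2, Tnf and Tnfrsf1a, and in 15.7% of all 32851 promoter windows of the same length. Windows of 1 gene are not separate units. Counted by gene, a match was present for 5 of 8, and for 4765 of all 27025 genes. Because the letters were chosen with the genes known, nothing is read from these shares. A match describes letters and was not tested as a binding site.

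Between populations, with the genotypes averaged, the ligand and the second receptor were highest in MNCs. The first receptor was not called between any of them, and Nfkbia, Tnfaip3, Nfkb2 and Relb were called higher in MSCs than in MNCs. Of these, Nfkbia and Nfkb2 were also called higher in ECs than in MNCs. Nfkbia had the highest level of the 10 genes in each population, with 490 ± 173 RPKM in ECs (SD, n = 10), 444 ± 170 RPKM in MSCs (n = 10) and 49.7 ± 19.4 RPKM in MNCs (n = 8). It ranked 202 of 25251 genes by mean RPKM in ECs, 213 in MSCs and 1641 in MNCs. Tnf had the lowest level of the 10 in ECs and in MSCs, at rank 12832 and 16559, and stood at rank 3961 in MNCs. Populations were compared with edgeR's quasi-likelihood test in 1 model of all 28 libraries, averaging the genotypes, and calls needed a Benjamini-Hochberg adjusted p, taken over 16897 genes, under 0.1 and mean RPKM values that differed by 1 or more on the log2 scale. By this rule 5 of the 10 genes were called between ECs and MNCs, where 45% of all genes tested were, 7 between MSCs and MNCs, where 44.3% were, and 1 between ECs and MSCs, where 32.9% were. Beside those shares the counts are not read as a result about the 10 genes together.

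**Figure D1:**
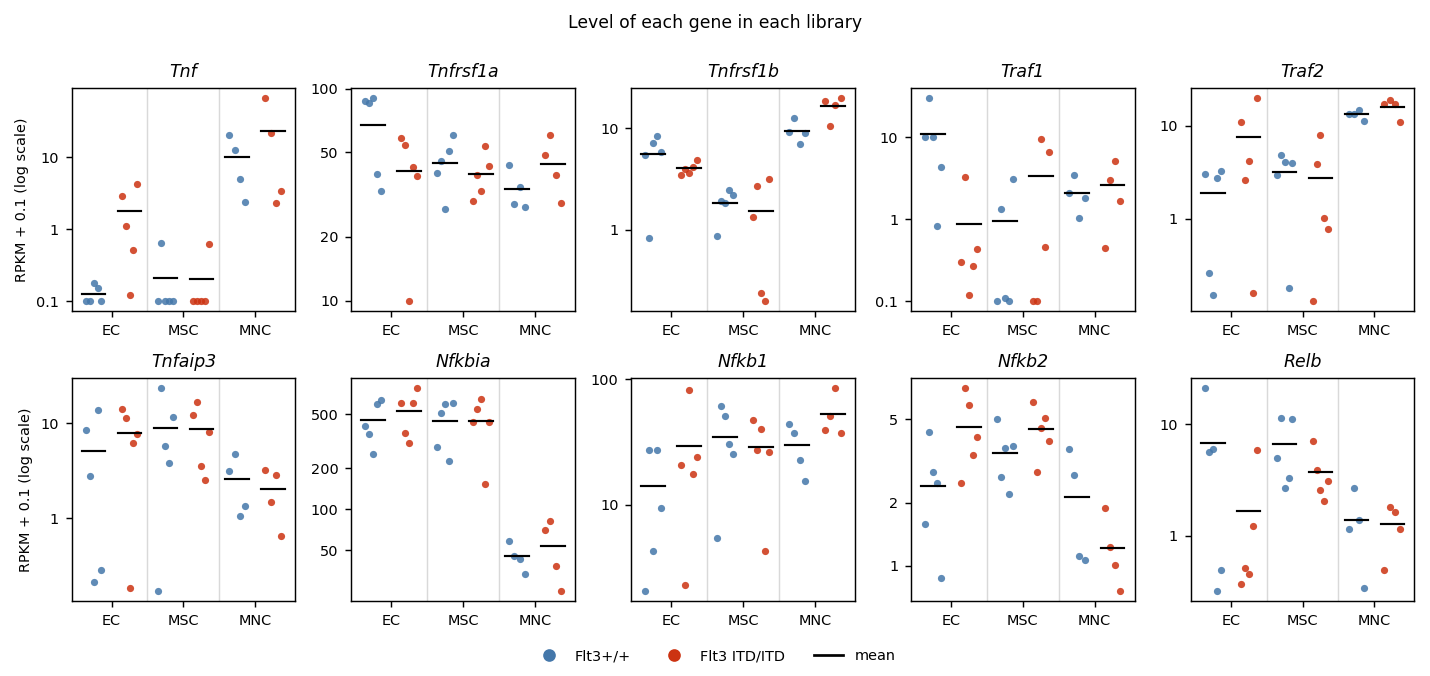
Level of each of the 10 genes in each library, as RPKM + 0.1 on a log axis that differs between panels, for Flt3+/+ (blue) and Flt3 ITD/ITD (red) ECs, MSCs and MNCs; points are libraries and bars are group means. The 8 MNC libraries lie below all 20 stromal libraries for Nfkbia and above all 10 MSC libraries for Tnf, Tnfrsf1b and Traf2.

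Tnf, the ligand (chr17:35199381-35202007, minus strand, GRCm38), measured 20.3, 12.4, 4.81 and 2.27 RPKM in the Flt3+/+ MNC libraries and 65.6, 21.7, 2.19 and 3.26 RPKM in the Flt3 ITD/ITD MNC libraries, in order of replicate. In Flt3+/+ MSCs it was at 0 in 4 libraries and at 0.55 RPKM in replicate 2. In Flt3 ITD/ITD MSCs it was at 0 in 4 libraries and at 0.52 RPKM in replicate 5. Every MNC library was thus above every MSC library, and the fitted log2 fold change of MSCs over MNCs was -7.16 (SE 1.39, edgeR adjusted p = 0.000143). For ECs over MNCs it was -6.29 (SE 1.36, edgeR adjusted p = 0.000481), although 2 Flt3 ITD/ITD EC libraries lay above the lowest MNC library. Among Flt3 ITD/ITD libraries alone the latter was -3.85 (edgeR adjusted p = 0.108). ECs and MSCs did not differ in Tnf beyond the spread, with a log2 fold change of 0.86 and a 95% interval of -2.01 to 3.74. That comparison depended on single MSC libraries and on genotype. It was 3.43 without replicate 2 of the Flt3+/+ MSCs (edgeR adjusted p = 0.0631). Without replicate 5 of the Flt3 ITD/ITD MSCs it was 3.22 (edgeR adjusted p = 0.0753). Among Flt3+/+ libraries alone its sign turned, at -2.27 (edgeR adjusted p = 0.364). Its EC side holds the Flt3 ITD/ITD values known when the genes were chosen, so no difference is read from these p-values.

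Tnfrsf1a, the receptor present on most cells (chr6:125349362-125362484), was measured at 9.83 to 90.0 RPKM in ECs (median 48.3), 26.9 to 60 RPKM in MSCs (median 41.6) and 27.7 to 60.3 RPKM in MNCs (median 36.6). The 3 ranges overlapped throughout, and no pair of populations was called. The largest of the 3 differences, ECs over MNCs, was 0.31 on the log2 scale with a 95% interval of -0.26 to 0.89 (edgeR adjusted p = 0.377). Among Flt3+/+ libraries alone that difference was 0.86 (edgeR adjusted p = 0.0833), and among Flt3 ITD/ITD libraries -0.088. Without replicate 3 of the Flt3 ITD/ITD ECs it was 0.49 (edgeR adjusted p = 0.0919). By mean RPKM its order was ECs, MSCs, MNCs, with no neighbors that differed beyond their spread.

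Tnfrsf1b, the receptor found mainly on leukocytes and endothelium (chr4:145213463-145246870), differed between every pair of populations. Its level was 12.8 ± 4.82 RPKM in MNCs, with a lowest, median and highest library at 6.95, 11.5 and 19.6 RPKM. In ECs it was 4.68 ± 2.11 RPKM, with 0.74, 4.43 and 8.31 RPKM. In MSCs it was 1.60 ± 1.02 RPKM, with 0.10, 1.79 and 3.10 RPKM. The MSC libraries all lay below the MNC libraries, while ECs overlapped with both. The log2 fold change was 1.32 for ECs over MSCs (SE 0.45, edgeR adjusted p = 0.0241), -1.55 for ECs over MNCs (SE 0.47, edgeR adjusted p = 0.0086) and -2.87 for MSCs over MNCs (SE 0.48, edgeR adjusted p = 2.53e-05). With only Flt3 ITD/ITD libraries the difference between ECs and MSCs was no longer called (1.26, edgeR adjusted p = 0.263), and with only Flt3+/+ libraries that between ECs and MNCs was not (-0.95, edgeR adjusted p = 0.191).

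Traf2, an adaptor that TNFR1 and TNFR2 both recruit (chr2:25517982-25546940), was even across MNC libraries and uneven in stromal ones. The 8 MNC libraries spanned 11 to 18.9 RPKM, the 10 EC libraries 0.05 to 19.8 RPKM and the 10 MSC libraries 0.03 to 7.85 RPKM. No MSC library reached the MNC range, whereas replicates 1 and 5 of the Flt3 ITD/ITD ECs, at 11 and 19.8 RPKM, did. The log2 fold change was -2.25 for MSCs over MNCs (SE 0.84, edgeR adjusted p = 0.0301) and -2.16 for ECs over MNCs (SE 0.83, edgeR adjusted p = 0.0369). Neither passed within both genotypes, since the adjusted p between MSCs and MNCs was 0.152 in Flt3+/+ and 0.196 in Flt3 ITD/ITD libraries, and that between ECs and MNCs was 0.546 in Flt3 ITD/ITD libraries (edgeR).

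Traf1, an adaptor of TNFR2 that NF-κB itself induces (chr2:34941750-34961772), was called in no comparison of populations. Its libraries ran from 0.02 to 30.0 RPKM in ECs, from 0 to 9.32 RPKM in MSCs and from 0.34 to 5.11 RPKM in MNCs. Counts at or below the floor of 3 occurred in 2 EC and 5 MSC libraries. The intervals of its differences were wide, for example -1.71 to 2.86 on the log2 scale for ECs over MSCs.

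Of the inhibitors, Nfkbia was higher in both stromal populations than in MNCs and Tnfaip3 in MSCs. Nfkbia, which encodes IκBα (chr12:55489410-55492647), measured 409, 357, 255, 593 and 635 RPKM in Flt3+/+ ECs and 602, 361, 308, 600 and 781 RPKM in Flt3 ITD/ITD ECs. It measured 288, 511, 594, 229 and 605 RPKM in Flt3+/+ MSCs and 439, 544, 646, 153 and 435 RPKM in Flt3 ITD/ITD MSCs. In MNCs it measured 58.5, 45.2, 43.4 and 33.8 RPKM in Flt3+/+ and 70.5, 82.7, 38.6 and 25.2 RPKM in Flt3 ITD/ITD libraries. The highest MNC library lay below the lowest EC and MSC library. The log2 fold change over MNCs was 3.16 in ECs (SE 0.30, edgeR adjusted p = 4.94e-09) and 3.26 in MSCs (SE 0.30, edgeR adjusted p = 2.77e-09). Nfkbia was the 1 gene of the 10 whose EC and MNC libraries did not overlap (18.5% of all genes tested), and 1 of 4, with Tnf, Tnfrsf1b and Traf2, whose MSC and MNC libraries did not (21.5%). No gene of the 10 was free of overlap between ECs and MSCs (8.36%), and Nfkbia itself differed between them by -0.10 on the log2 scale (95% interval -0.62 to 0.42).

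A list of 12 immediate-early genes, such as Fos, Egr1 and Atf3, was also lowest in MNCs. Its summed level was 1280 to 3624 RPKM in ECs, 1683 to 4834 RPKM in MSCs and 132 to 1174 RPKM in MNCs, with all 12 above the floor in every EC and MSC library. Per the study's methods, bone-lining cells were freed with collagenase at 37°C before sorting. The study's text can be read as taking the MNCs from bone-lining cells too, so whether they passed this step is not settled. The part of these genes, or of the handling of the cells, in the level of Nfkbia was not tested. Among MNC libraries, taken in order of replicate, the immediate-early sum was 925, 841, 250 and 268 RPKM in Flt3+/+ and 1174, 770, 177 and 132 RPKM in Flt3 ITD/ITD, so that the libraries with the lower sums were also those with less Nfkbia and less Tnf. Nothing in the labels says whether a replicate number marks a shared day or mouse.

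**Figure D2:**
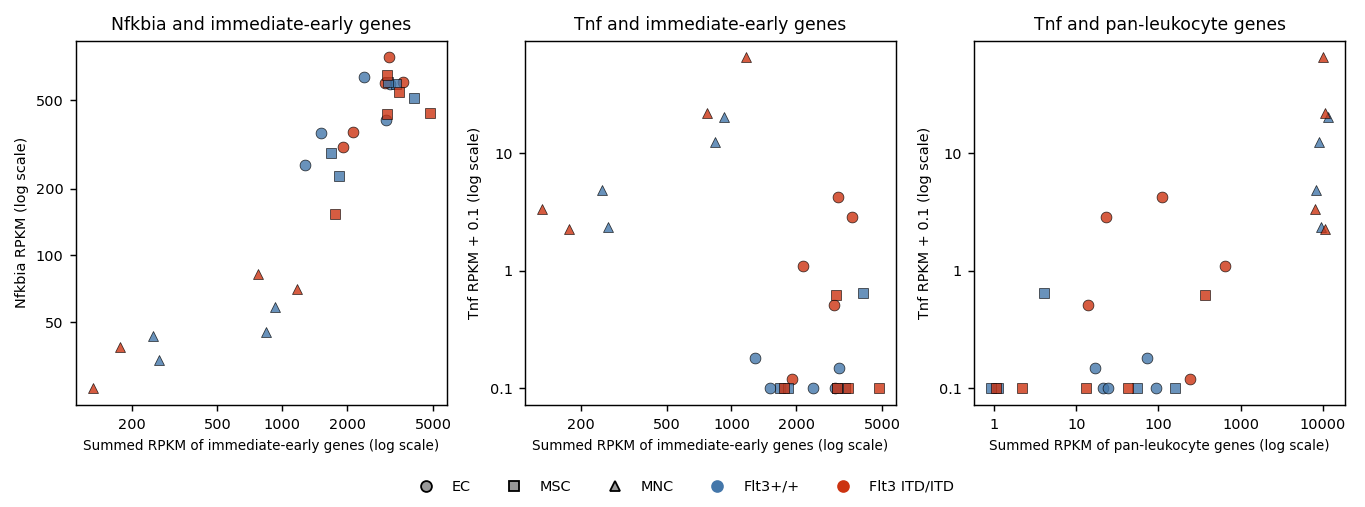
RPKM of Nfkbia (left) and of Tnf + 0.1 (middle) against the summed RPKM of 12 immediate-early genes, and of Tnf + 0.1 against the summed RPKM of 12 pan-leukocyte genes (right), on log axes; each point is a library, with shapes for populations and colors for genotypes. Immediate-early sums and Nfkbia were both lowest in the 8 MNC libraries. The Flt3 ITD/ITD EC libraries with the most Tnf, at 4.14, 2.79 and 1.01 RPKM, had pan-leukocyte sums of 109, 23.1 and 648 RPKM. These sums were 16.7 to 92.2 RPKM in the Flt3+/+ EC libraries.

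Tnfaip3, which encodes the ubiquitin-editing inhibitor A20 (chr10:19000910-19015657), was called in MSCs over MNCs only. The lowest, median and highest library held 0.07, 6.81 and 23.7 RPKM in MSCs, 0.08, 6.84 and 14.0 RPKM in ECs and 0.55, 2.06 and 4.71 RPKM in MNCs, so that each pair of populations overlapped. The log2 fold change was 2.12 for MSCs over MNCs (SE 0.87, edgeR adjusted p = 0.0506) and 1.38 for ECs over MNCs (SE 0.85, edgeR adjusted p = 0.19). Within 1 genotype the first was not called, with an adjusted p of 0.305 in Flt3+/+ and 0.102 in Flt3 ITD/ITD libraries (edgeR).

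Among the subunits, those of the noncanonical pathway were higher in MSCs than in MNCs and the one of the canonical pathway was not. Nfkb2, which encodes p100 and p52 (chr19:46304320-46312385), was at 3.40 ± 1.90 RPKM in ECs, 3.86 ± 1.21 RPKM in MSCs and 1.57 ± 0.997 RPKM in MNCs, with overlap between each pair of populations. Its log2 fold change over MNCs was 1.01 in ECs (SE 0.36, edgeR adjusted p = 0.0233) and 1.5 in MSCs (SE 0.36, edgeR adjusted p = 0.00142). In Flt3+/+ libraries alone these were 0.14 (edgeR adjusted p = 0.879) and 0.86 (edgeR adjusted p = 0.294). Nfkb2 shares its locus with Psd on the other strand, the library kit is not stated to keep strand, and Psd was itself at 0.02 to 2.62 RPKM in stromal and 0.08 to 0.44 RPKM in MNC libraries, so the values of Nfkb2 are uncertain.

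Relb, the dimer partner of p52 (chr7:19606217-19629438), was at 5.11 ± 3.48 RPKM in MSCs, with libraries from 1.93 to 11.2 RPKM, and at 1.23 ± 0.75 RPKM in MNCs, with libraries from 0.24 to 2.58 RPKM. The log2 fold change was 2.09 (SE 0.71, edgeR adjusted p = 0.0176), and it was not called within Flt3+/+ (edgeR adjusted p = 0.111) or Flt3 ITD/ITD libraries (edgeR adjusted p = 0.147). In ECs Relb ranged from 0.22 to 21.1 RPKM and was not called against either population. It was called against MNCs with DESeq2 (1.26, DESeq2 adjusted p = 0.0817), and against MSCs without replicate 5 of the Flt3 ITD/ITD ECs (-1.43, edgeR adjusted p = 0.0703). Nfkb1, which encodes p105 and p50 (chr3:135584655-135691547), had the second highest mean of the 10 in MNCs, 41.4 ± 21.0 RPKM, against 31.7 ± 18.5 RPKM in MSCs and 21.6 ± 23.5 RPKM in ECs. None of its differences was called, the largest being -1.11 on the log2 scale for ECs over MNCs (95% interval -2.25 to 0.04, edgeR adjusted p = 0.107). Without replicate 3 of the Flt3 ITD/ITD ECs that difference was -1.49 (edgeR adjusted p = 0.0265), and with DESeq2 it was -1.16 (DESeq2 adjusted p = 0.0621).

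**Figure D3:**
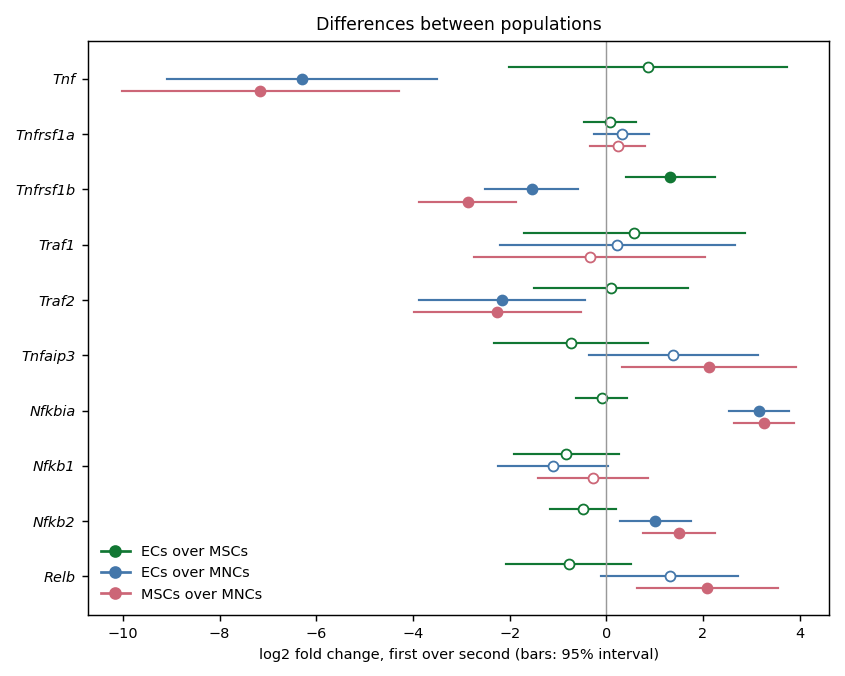
Fitted log2 fold changes of the 10 genes between populations, averaged over genotypes, with 95% intervals; filled points passed the call rule and open points did not. Nfkbia and Nfkb2 were higher, and Tnf, Tnfrsf1b and Traf2 lower, in both stromal populations than in MNCs. The intervals of Tnfrsf1a, Traf1 and Nfkb1 spanned 0 in all 3 comparisons.

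A list of 70 other genes of the pathway gave the setting for these differences. Between ECs and MNCs 31 of 68 tested were called, 19 higher and 12 lower in ECs, with a median log2 fold change of 0.10 (0 over all genes). Between MSCs and MNCs 33 of 68 were called, 19 higher and 14 lower in MSCs (median -0.13, and -0.02 over all genes). Between ECs and MSCs 22 of 68 were called, 8 higher and 14 lower in ECs (median 0.02, and -0.01 over all genes). In these 3 comparisons 21, 21 and 15 of the 26 NF-κB targets tested were called, where 45%, 44.3% and 32.9% of all genes were, and 0 of the 5 inhibitors of signaling; no test of enrichment was made.

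Named by the size of the fitted change, the neutrophil chemokine Cxcl1 led the targets with 161 ± 107 RPKM in ECs, 1250 ± 780 RPKM in MSCs and 0.01 ± 0.02 RPKM in MNCs (edgeR adjusted p = 7.76e-09 and 5.74e-10 against MNCs). Tnfaip6, a secreted hyaluronan-binding protein, was at 321 ± 169 RPKM in MSCs and 1.80 ± 1.09 RPKM in MNCs (edgeR adjusted p = 2.10e-08). Cx3cl1, the membrane-bound chemokine, was at 1.67 ± 2.81 RPKM in ECs and 2.01 ± 1.58 RPKM in MSCs, and at 0.003 RPKM on average in MNCs (edgeR adjusted p = 8.46e-05 and 3.57e-05). Sele, the endothelial adhesion molecule E-selectin, was at 44.3 ± 39.9 RPKM in ECs and at 0.12 ± 0.16 RPKM in MNCs (edgeR adjusted p = 2.68e-05), and Casp8, the initiator caspase of death receptors, was at 39.6 ± 15.8 RPKM in ECs and 4.48 ± 4.12 RPKM in MSCs (edgeR adjusted p = 5.01e-05). Ltbr, the lymphotoxin β receptor, was at 21.4 ± 13.8 RPKM in ECs and 7.10 ± 2.63 RPKM in MSCs (edgeR adjusted p = 0.00288).

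In the other direction, the monocyte chemokine Ccl2 was at 813 ± 509 RPKM in MSCs and 2.73 ± 7.80 RPKM in ECs (edgeR adjusted p = 2.08e-06), and the prostaglandin synthase Ptgs2 was at 15.8 ± 11.4 RPKM in MSCs and 0.02 ± 0.03 RPKM in ECs (edgeR adjusted p = 2.55e-06). Genes higher in MNCs included the gelatinase Mmp9, at 145 ± 80.3 RPKM against 0.02 ± 0.04 RPKM in ECs and 0.38 ± 0.83 RPKM in MSCs (edgeR adjusted p = 3.91e-08 and 3.38e-07). The cytokine Il1b was listed at 0 RPKM in all 10 EC libraries, at 2.32 ± 3.75 RPKM in MSCs and at 26.1 ± 17.8 RPKM in MNCs, and the chemokine Ccl5 was listed at 0 RPKM in all 10 MSC libraries and at 113 ± 81.9 RPKM in MNCs. The kinase gene Ikbke was at 10.1 ± 4.86 RPKM in MNCs and 0.003 RPKM on average in ECs (edgeR adjusted p = 7.15e-07), and Tnip3, a partner of A20, at 3.43 ± 5.80 RPKM in MNCs and 0.06 ± 0.18 RPKM in MSCs (edgeR adjusted p = 2.19e-05).

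The genes whose levels followed 3 of the members most closely over the 28 libraries were taken from 13727 genes, by Pearson's r of log2 RPKM with a pseudocount of 1. For Tnf these were D13Ertd608e (r = 0.90), the leukotriene receptor gene Ltb4r1 (r = 0.89) and Mir142b (r = 0.89), each with a mean of at most 0.31 RPKM in ECs and 0 RPKM in MSCs. For Tnfrsf1b they were Cd300a (r = 0.89), Ly6c2 (r = 0.88) and Dna2 (r = 0.88). For Nfkbia they were Ier3 (r = 0.96), Sertad1 (r = 0.96) and Adamts1 (r = 0.96), with means of 713, 275 and 71.3 RPKM in ECs and 29.1, 22.3 and 0.004 RPKM in MNCs. These are descriptions across libraries of 3 populations, which share their population differences.

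The comparison of genotypes in ECs was known when the 10 genes were chosen, so its values are a description, with no p for single genes. Tnf was at 0, 0, 0.08, 0.05 and 0 RPKM in the 5 Flt3+/+ EC libraries, which is 0, 0, 2, 1 and 0 counts. In the Flt3 ITD/ITD EC libraries it was at 2.79, 1.01, 0.02, 0.41 and 4.14 RPKM, or 29, 51, 1, 8 and 177 counts. No Flt3+/+ library was thus above the floor, 4 of 5 Flt3 ITD/ITD libraries did, and replicate 3 of the latter overlapped with Flt3+/+. Pooled over libraries, the 266 counts in Flt3 ITD/ITD and the 3 in Flt3+/+ ECs gave a ratio of 83.2 per total count. Of the 266 counts, 177 came from replicate 5. The ratio is a description without an interval, since amplified reads are not independent molecules and the libraries differed widely. The fitted log2 fold change, which depends on the prior count, was 5.93 (SE 1.67), and 5.25 to 7.08 when each library was left out in turn.

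Even the highest of these EC libraries, at 4.14 RPKM, lay within the MNC range of 2.19 to 65.6 RPKM. The 12 pan-leukocyte markers summed to 23.1, 648, 244, 14.0 and 109 RPKM in the Flt3 ITD/ITD EC libraries and to 16.7 to 92.2 RPKM in the Flt3+/+ ones, with 3 to 10 and 3 to 6 markers above the floor, respectively. Ptprc, which encodes CD45, was above the floor in 1 of the 5 Flt3 ITD/ITD EC libraries and in none of the Flt3+/+ ones. The monocyte markers summed to 16.5, 229, 28.4, 31.7 and 73.2 RPKM in the Flt3 ITD/ITD EC libraries and to 4.72 to 36.4 RPKM in the Flt3+/+ ones. The fitted log2 fold change of Tnf was 6.06 without replicate 2, the library with the most leukocyte transcripts, and 6.01 with the pan-leukocyte level as a covariate. Flt3 itself was at 0 to 1 counts in the Flt3+/+ EC libraries and reached 148 counts in a Flt3 ITD/ITD one. Both fits are a description, since the Flt3+/+ EC libraries held 3 counts of Tnf in all. The part of leukocyte transcripts in the level of Tnf was not tested.

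Traf1 had the opposite sign in the same libraries. It was at 9.96, 30.0, 9.95, 0.72 and 4.19 RPKM in Flt3+/+ ECs and at 0.20, 3.15, 0.02, 0.17 and 0.33 RPKM in Flt3 ITD/ITD ECs. The only overlap came from replicate 2 of the Flt3 ITD/ITD ECs, which exceeded replicate 4 of the Flt3+/+ ones. The log2 fold change was -3.97 (SE 1.38), with -5.98 to -3.04 when each library was left out. Traf2 was at 2.96, 0.16, 0.05, 2.63 and 3.19 RPKM in Flt3+/+ and at 11, 2.51, 4.04, 0.06 and 19.8 RPKM in Flt3 ITD/ITD ECs, a log2 fold change of 2.06 (SE 1.33) with wide overlap.

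Relb was at 21.1, 5.56, 5.90, 0.22 and 0.39 RPKM in Flt3+/+ and at 0.27, 0.41, 0.35, 1.11 and 5.76 RPKM in Flt3 ITD/ITD ECs, a log2 fold change of -1.98 (SE 1.24). Both groups held high and low libraries. The other 6 genes had log2 fold changes between -0.72 (Tnfrsf1a, SE 0.48) and 1.09 (Nfkb1, SE 0.91), and Nfkbia, the most abundant, had one of 0.26 (SE 0.30). Nfkb1 in replicate 3 of the Flt3 ITD/ITD ECs, at 82.0 RPKM, was 1 library that set its group mean, and without it the log2 fold change was 0.23.

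Libraries of the genotypes overlapped in ECs for all 10 genes, where 1.14% of all genes tested had no overlap. With edgeR the call rule was met by 0 of the 9 genes that passed the filter on low counts and by 1 of all 12351 genes (0.0081%). Tnf was the gene that did not pass, so this count does not cover it. With DESeq2 it was met by 1 of the 9, Traf1, and by 108 of all genes, and nothing is read from these counts. Of the 70 further pathway genes 57 passed the filter, none was called by edgeR, and none was free of overlap between genotypes.

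**Figure D4:**
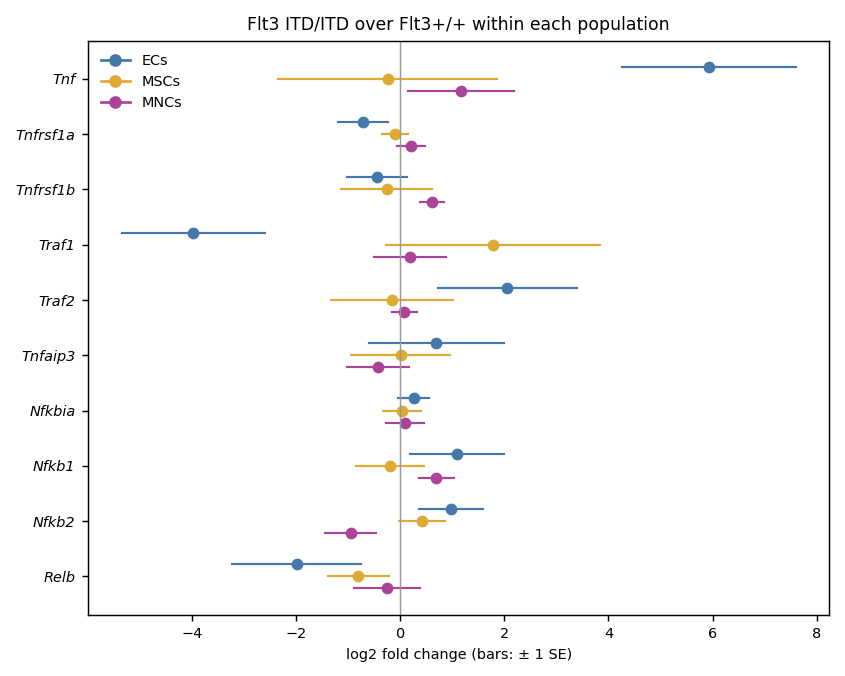
Fitted log2 fold change of Flt3 ITD/ITD over Flt3+/+ for each of the 10 genes in ECs (blue), MSCs (yellow) and MNCs (purple), with bars of 1 SE on each side. In ECs, the comparison known when the genes were chosen, Tnf is at 5.93 and Traf1 at -3.97; in MSCs and MNCs no gene was called.

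In MSCs the genotypes did not differ detectably in these genes. With edgeR 0 of the 9 that passed the filter were called, against 4 of 13574 genes (0.0295%), and none had an unadjusted p under 0.05, where 575 of all genes tested did. DESeq2 called none either. Tnf was the gene that did not pass the filter, so these counts do not cover it. It was above the floor in 1 library of each genotype, and its mean was 0.11 ± 0.25 RPKM in Flt3+/+ and 0.10 ± 0.23 RPKM in Flt3 ITD/ITD MSCs (SD, n = 5). Nfkbia was at 445 ± 176 and 444 ± 184 RPKM, a log2 fold change of 0.04 with a 95% interval of -0.77 to 0.84. Relb was at 6.57 ± 4.23 and 3.65 ± 2.01 RPKM, a log2 fold change of -0.80 (SE 0.59, edgeR adjusted p = 0.999). The interval of Traf1, -2.74 to 6.30, shows how little these libraries could resolve for genes near the floor. The libraries overlapped for each of the 10 genes (0.914% of all genes tested did not).

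Of the 70 further pathway genes 59 were tested in MSCs, none was called by edgeR and 4 had an unadjusted p under 0.05. DESeq2 called 1, Ikbkg. Those with the smallest p included Ikbkg, the regulatory subunit of the IκB kinase, at 7.66 ± 0.99 RPKM in Flt3+/+ and 3.80 ± 0.69 RPKM in Flt3 ITD/ITD MSCs without overlap (log2 fold change -0.96, SE 0.24, edgeR adjusted p = 0.999). Tradd, the adaptor that docks on TNFR1, was at 10.6 ± 4.39 and 3.13 ± 1.84 RPKM, also without overlap (log2 fold change -1.71, SE 0.69, edgeR adjusted p = 0.999). Fam105b, a linear-ubiquitin peptidase gene, was at 3.46 ± 4.16 and 0.49 ± 0.71 RPKM. In the other direction the A20 partner Tax1bp1 was at 52.8 ± 9.87 and 77.6 ± 22.6 RPKM, the adhesion molecule Vcam1 at 24.3 ± 15.6 and 53.6 ± 31.6 RPKM, and Tnip3 at 0 in all Flt3+/+ libraries and at 0.11 ± 0.25 RPKM in Flt3 ITD/ITD MSCs.

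In MNCs 10 genes were tested and 0 were called with edgeR or with DESeq2, where edgeR called 2 of 13926 genes (0.0144%). Tnfrsf1b was the 1 gene of the 10 with an unadjusted p under 0.05, as were 1447 of all genes tested. It was at 9.01, 12.6, 6.95 and 8.90 RPKM in Flt3+/+ and at 18.4, 10.3, 16.7 and 19.6 RPKM in Flt3 ITD/ITD MNCs. Replicate 2 of each genotype made the groups overlap, and the log2 fold change was 0.61 (SE 0.22, edgeR adjusted p = 0.419). Tnf, at 9.95 ± 8.14 and 23.2 ± 29.6 RPKM (SD, n = 4), had a log2 fold change of 1.17 with a 95% interval of -1.12 to 3.45, and it turned to -0.25 at the lowest when single libraries were left out. Nfkb1 was at 44.2, 37.0, 22.7 and 15.3 RPKM in Flt3+/+ and at 38.9, 51.1, 85.1 and 37.3 RPKM in Flt3 ITD/ITD libraries, a log2 fold change of 0.69 (SE 0.34, edgeR adjusted p = 0.506). Nfkb2 had the opposite sign, with 2.02 ± 1.25 and 1.12 ± 0.48 RPKM and a log2 fold change of -0.95 (SE 0.50, edgeR adjusted p = 0.526).

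No member's MNC libraries were free of overlap between genotypes, where 6.71% of all genes tested were. The neutrophil markers summed to 171387 to 210964 RPKM in Flt3+/+ MNCs and to 183493, 161428, 43808 and 60184 RPKM in the 4 Flt3 ITD/ITD libraries, 2 of which lay below every Flt3+/+ library. With the neutrophil score as a covariate 0 genes were called for the genotype in MNCs, and Traf1 turned to -0.58. The part of these markers in the values was not tested further.

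Of the 70 further pathway genes 63 were tested in MNCs, none was called by edgeR and 4 had an unadjusted p under 0.05. DESeq2 called 1, Tab3. Map3k8, a kinase downstream of TNF receptors, was at 10.7 ± 4.27 RPKM in Flt3+/+ and 21.0 ± 1.01 RPKM in Flt3 ITD/ITD MNCs without overlap (log2 fold change 0.84, SE 0.25, edgeR adjusted p = 0.415). Adam17, the protease that sheds TNF from the cell surface, was at 10.4 ± 1.91 and 18.4 ± 5.10 RPKM, and Csf2 was at 0 in all Flt3+/+ libraries and 0.08 ± 0.12 RPKM in Flt3 ITD/ITD ones. In the other direction the TNF-induced gene Tnfaip2 was at 22.9 ± 1.80 and 13.7 ± 3.09 RPKM (log2 fold change -0.94, SE 0.20, edgeR adjusted p = 0.397), Tab3, a partner of the kinase TAK1, was at 2.77 ± 0.49 and 1.05 ± 0.55 RPKM, and the receptor kinase gene Ripk1 was at 8.98 ± 2.55 and 7.25 ± 1.97 RPKM.

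The genotype effects in MSCs and MNCs were also set against each other with an interaction term. With edgeR 0 of the 10 genes were called and none had an unadjusted p under 0.05, against 1 of 16897 genes called (0.00592%) and 1003 of all genes under 0.05, and DESeq2 called none. The smallest p was that of Nfkb2, whose effect was 1.38 higher in MSCs than in MNCs on the log2 scale (95% interval -0.07 to 2.83, edgeR adjusted p = 0.905). The interaction with ECs was not tested, since the effect there was known when the genes were chosen.

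Within a group the 10 genes differed in how evenly they were measured. In ECs and MSCs 10 and 14 of 100 values were at or below 3 counts, against 0 of 80 in MNCs. Tnfaip3 ranged from 0.07 to 23.7 RPKM within Flt3+/+ MSCs, and Nfkb1 from 2.18 to 82.0 RPKM within Flt3 ITD/ITD ECs. Nfkbia, by contrast, spanned at most 4.22-fold within any group, and Tnfrsf1a at most 5.92-fold.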

How the data were processed

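Per the study's methods, 51-base single-end reads were aligned with Bowtie to transcripts of mm10, reads that did not map uniquely were discarded, and RSEM gave 1 count per gene and library. The authors deposited these estimated counts as whole numbers, together with RPKM values that they had scaled to transcript length and mapped reads, and tool versions are not given in the sources used here. Counts were tested with edgeR (4.0.16, R 4.3.3, limma 3.58.1) by the quasi-likelihood method, with TMM normalization and the filter filterByExpr, over all genes of the table. Intervals of fold changes used the t quantile at the degrees of freedom of each gene's test. Members that failed the filter were taken from a fit without it. Calls needed an adjusted p under 0.1 and mean RPKM values that differed by 1 or more on the log2 scale. Genotypes were compared within a population, and populations and the interaction in 1 model of 6 groups. DESeq2 (1.42.0), RLE normalization, no filter, the adjusted p alone, marker scores as covariates, single genotypes and left-out libraries were alternatives. Scripts were tested on simulated data. Libraries held 6377013 to 33880743 counts, and none of 378 pairs was identical, so all 28 were kept.

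The members, the pathway and marker lists and the tests were chosen with earlier results of these data known. Named pathway genes were, per comparison, the 3 largest called changes in each direction, or, without calls, the 3 smallest unadjusted p-values in each direction. For ECs they were those without overlap between genotypes, of which there were none. Gene positions are from GENCODE vM21 (GRCm38), and promoters from RefSeq (GRCm38.p6). No reference promoter was used for Nfkb1 and Relb.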

Additional observations from a re-analysis of the deposited data

Results flagged for a closer look

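In 60 groups of a gene's values, 6 held a library that stood apart from the rest by Dixon's test. Chance gives about 1 in 20 for normally distributed values. RPKM values with ties at 0 are not such values, so no comparison with that rate is drawn. Tnf was at 0.55 RPKM in replicate 2 of the Flt3+/+ MSCs and at 0.52 RPKM in the fifth replicate of Flt3 ITD/ITD MSCs, with the other 4 libraries of each group at 0. Traf1 was at 3.15 RPKM in replicate 2 of the Flt3 ITD/ITD ECs, where the next library was at 0.33 RPKM. Nfkb1 was at 81.98 RPKM in replicate 3 of the same group, where the next was at 24 RPKM. Relb was at 21.14 RPKM in replicate 1 of the Flt3+/+ ECs, with the next at 5.9 RPKM, and at 5.76 RPKM in replicate 5 of the Flt3 ITD/ITD ECs, with the next at 1.11 RPKM.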

How the results depend on the processing

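At or below 3 counts, where a level could not be told from 0, were 10 of 100 EC values, 14 of 100 MSC values and 0 of 80 MNC values of the members. Under alternatives other than leaving out a library, 384 log2 fold changes of members counted as the same. Another 13 were no longer past the threshold, 6 newly passed it and 25 turned in sign, and the cause was not tested. The same meant an unchanged direction and side of the threshold. For the genotype in ECs, where no p is given, it meant a shift smaller than the spread between libraries derived from the SE.

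For the genotype, the number of genes called with DESeq2 was 108 in ECs (1 with edgeR), 61 in MSCs (4), 265 in MNCs (2) and 354 for the interaction (1). DESeq2 also called 1 member in ECs, and 1 gene of the pathway list in MSCs and 1 in MNCs. Without the filter 0 genes were called in ECs and 2 in MSCs. With the pan-leukocyte score as a covariate ECs had 0 and MSCs 2, with the immediate-early score ECs had 0, MSCs 2 and MNCs 0, and with the neutrophil score 0 in MNCs.

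Among Flt3 ITD/ITD libraries alone 3599 genes and 0 members were called between ECs and MSCs, 3 members between ECs and MNCs, and 4839 genes and 4 members between MSCs and MNCs. Among Flt3+/+ libraries alone 3 members were called between MSCs and MNCs. Without replicate 2 of the Flt3 ITD/ITD ECs and replicate 5 of the Flt3 ITD/ITD MSCs together, 2 members were called between ECs and MSCs, and Traf1 turned to -0.26 there and to -0.79 between ECs and MNCs. Other values that turned in sign among Flt3 ITD/ITD libraries were, for ECs over MSCs, Tnfrsf1a -0.21, Traf1 -2.23 and Nfkbia 0.024, for ECs over MNCs, Tnfrsf1a -0.088 and Traf1 -1.73, and for MSCs over MNCs, Traf1 0.50. Among Flt3+/+ libraries they were Tnf -2.27 and Traf2 -1.0 for ECs over MSCs and Nfkb1 0.21 for MSCs over MNCs. Tnfrsf1a for ECs over MNCs was 0.86 in Flt3+/+ libraries (edgeR adjusted p = 0.0833).

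For the genotype in MSCs, Tnf was 0.44 and Nfkbia -0.038 with the immediate-early score, and Tnfaip3 was -1.1e-05 without the filter and -0.00046 with the pan-leukocyte score. For the genotype in MNCs, Traf1 was -0.58 with the neutrophil score and Nfkbia -0.052 with the immediate-early score.

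The correlation of same-numbered libraries was over 0.1 in 0 pairs (-0.185 to 0.0741). Between genotypes, however, 3 of 5 EC, 4 of 5 MSC and 2 of 4 MNC libraries correlated best with their own number. These values do not settle whether replicate numbers pair the samples, so the block below is given as an alternative. With the replicate number as a block 0 genes were called for the genotype in each of the 3 populations and 2 for the interaction. Under the block Tnf was 0.025 for the genotype in MSCs, Traf1 -0.27 and Nfkbia -0.065 for that in MNCs, Tnfaip3 -0.30 and Nfkbia 0.10 for the interaction, Tnfrsf1a -0.028 and Traf2 -0.21 for ECs over MSCs, and Traf1 -0.35 for ECs over MNCs. Tnfaip3 for MSCs over MNCs was 2.14 (edgeR adjusted p = 0.114), and Nfkb1 for ECs over MNCs -1.55 (edgeR adjusted p = 0.0516).

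When each library was left out in turn, genes called for the genotype ran from 0 to 0 (ECs), 0 to 2 (MSCs) and 0 to 1 (MNCs), and from 1 to 4 for the interaction, and members called from 1 to 2 between ECs and MSCs, 4 to 6 between ECs and MNCs and 7 to 7 between MSCs and MNCs. Sign turned within these ranges for the genotype in MSCs: Tnf -5.33 to 4.95, Nfkb1 -0.46 to 0.092, Nfkbia -0.13 to 0.25, Tnfaip3 -0.40 to 0.77, Tnfrsf1a -0.27 to 0.014, Tnfrsf1b -0.71 to 0.039 and Traf2 -1.09 to 0.15. In MNCs it did for Tnf -0.25 to 1.73, Nfkbia -0.18 to 0.35, Relb -0.59 to 0.20, Traf1 -0.43 to 0.54 and Traf2 -0.0082 to 0.25. For the interaction it did for Nfkbia -0.32 to 0.20, Tnf -6.34 to 3.52, Tnfaip3 -0.0017 to 1.16 and Traf2 -1.18 to 0.057, for ECs over MSCs for Traf1 -0.44 to 1.28 and Traf2 -0.25 to 0.56, and for ECs over MNCs for Traf1 -0.79 to 0.54.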
